A study of Mus musculus with 12 samples.

Results

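Iron absorption was followed through 8 genes listed by symbol: Slc11a2, Cybrd1, Slc40a1, Heph, Tfrc, Fth1, Ftl1 and Epas1. All 8 were found among the 47643 genes of the deposited table, and all 8 passed the filter on low counts that left 17602 genes for testing. The study sequenced total RNA from the intestine of male C57BL/6 mice aged 7 to 8 weeks, in 4 groups of 3 libraries. Pparafl/fl mice, which carry loxP-flanked alleles of Ppara, and PparaΔIE mice, in which that gene is deleted in intestinal epithelium, were fed either chow or a 60% high-fat diet (HFD) for 10 days. Ppara encodes a fatty acid-activated nuclear receptor. The labels name neither the recombinase nor the deleted exons nor the segment of intestine. They also do not say that each library is a different mouse, and the p-values therefore reflect only how these libraries scatter, which could be technical scatter. In bulk tissue, fewer cells of a type and less RNA per cell cannot be told apart.

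Dietary non-heme iron is reduced at the brush border of the enterocyte, taken in as ferrous iron, and then either stored in ferritin or exported to the blood, where it is oxidised and bound by transferrin. Slc11a2 encodes DMT1, the apical ferrous iron transporter, and Cybrd1 the apical ferric reductase DCYTB. Slc40a1 encodes ferroportin, the exporter of cellular iron, and Heph encodes hephaestin, the ferroxidase that works with it. Tfrc encodes the transferrin receptor. Fth1 and Ftl1 encode the heavy and light chains of ferritin, and Epas1 encodes HIF-2α, the hypoxia-inducible transcription factor that drives Slc11a2, Cybrd1 and Slc40a1 in iron deficiency. Several of these messages are also controlled after transcription by iron regulatory proteins, which bind a short hairpin called the iron-responsive element. Bound in a 5′ UTR it blocks translation, and bound in a 3′ UTR it protects the message from decay.

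The hairpin sequences are shown because control through them is a layer that RNA levels only partly report. The UTRs of the GENCODE vM21 annotation (mm10) were searched on the transcribed strand for a C, any 5 bases, CAG, any base, G and any base, in which the 5 bases between the bulged C and CAG pair with the 5 bases after the loop, G with T allowed. Capitals mark the bulged C and the 6-base loop, and 6 flanking bases on either side complete each sequence.
Fth1 5′ UTR, chr19:9982732-9982760, plus strand: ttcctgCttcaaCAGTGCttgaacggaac
Ftl1 5′ UTR, chr7:45459779-45459807, minus strand: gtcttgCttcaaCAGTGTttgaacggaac
Slc40a1 5′ UTR, chr1:45925465-45925493, minus strand: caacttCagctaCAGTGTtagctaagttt
Tfrc 3′ UTR, first match, chr16:32631160-32631188, plus strand: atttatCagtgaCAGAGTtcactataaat
Tfrc 3′ UTR, second match, chr16:32631219-32631247, plus strand: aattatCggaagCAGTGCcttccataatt
Tfrc 3′ UTR, last match, chr16:32631710-32631738, plus strand: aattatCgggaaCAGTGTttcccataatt
Tfrc held 5 matches in its 3′ UTR, and Fth1, Ftl1 and Slc40a1 held 1 each in the 5′ UTR. Not every annotated transcript carried them. Of the transcripts with a 5′ UTR, the match lay in 1 of 4 for Slc40a1, 1 of 2 for Ftl1 and 4 of 5 for Fth1. The Tfrc matches lay in 1 of 2 transcripts with a 3′ UTR. Of all genes with an annotated 5′ UTR, 134 of 20900 (0.641%) held such a match, and of those with a 3′ UTR, 363 of 21681 (1.67%) did. No match under this rule was found in the annotated UTRs of Slc11a2, Cybrd1, Heph or Epas1, which says only that these letters and pairs are not in those windows. The rule is strict: Slc11a2 and Epas1 are known to carry iron-responsive elements in their 3′ and 5′ UTRs, and it did not find them.

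The duodenum is the main site of iron uptake, and the markers of proximal intestine gave no single picture. Pdx1, a transcription factor of duodenum and pancreas, measured between 0 and 0.174 counts scaled to library size (CPM), that is between 0 and 8 counts. The others of that list were detected: Lct, the lactase gene, measured 0.453 to 256 CPM, Gata4 1.72 to 12.9 CPM and Onecut2 0.139 to 0.693 CPM. Fabp6 and Slc10a2, the bile acid binding protein and bile acid transporter of the distal small intestine, measured 3069 to 4502 CPM and 928 to 1512 CPM. Cybrd1, a member that is strong in duodenal enterocytes, measured 1.06 to 2.88 CPM. The 8 genes are therefore described here as iron absorption genes of intestine, with no segment named. Markers of intestinal epithelium were present in every library, with a summed level of 12593 to 18513 CPM over 9 genes.

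Library totals ran from 33621040 to 53959405 expected counts, and CPM values were scaled by trimmed mean of M values (TMM). The targeted gene followed its labels in part: Ppara measured 19.2, 18.1 and 22.0 CPM in Pparafl/fl chow, 8.42, 15.6 and 13.0 CPM in PparaΔIE chow, 39.3, 36.6 and 33.7 CPM in Pparafl/fl HFD, and 11.4, 11.1 and 17.3 CPM in PparaΔIE HFD. It was lower in the deletion group on both diets without overlap, and past the threshold on HFD (log2 difference -1.46, adjusted p = 0.031) but not on chow (-0.68, adjusted p = 0.25; edgeR). The third PparaΔIE chow library lay between the other 2 of its group in 98.6% of the 283 genes that differed at least 2-fold between those 2, and the first Pparafl/fl chow library did so in 83.0% of 47 genes. The latter share was near those of the second and first PparaΔIE HFD libraries (79.2% of 125 and 76.0% of 171 genes) and of the second Pparafl/fl HFD library (74.3% of 167), and libraries on HFD were not left out for it. Among the 8 genes, the 2 chow libraries lay between the others for 5 and 4 genes, and results are also given without both where a call changes. Of the 3 tested proximal markers Lct alone passed between diets in Pparafl/fl mice (13.4% of all genes), and 0 of 3 in PparaΔIE mice (8.2%). Lct measured 2.01 to 2.75 CPM in Pparafl/fl chow and 76.2 to 256 CPM in Pparafl/fl HFD, but 0.453, 102 and 57.6 CPM in the PparaΔIE chow libraries. Gata4 overlapped between the diets in Pparafl/fl mice (2.11 to 2.88 against 1.72 to 9.95 CPM), and Onecut2 differed by -0.66 there without passing. Fgf15, a hormone gene of the distal ileum, also rose on HFD in Pparafl/fl mice, 6.91-fold (adjusted p = 0.024, edgeR). In PparaΔIE mice it measured 15.1, 109 and 69.4 CPM on chow and 159, 79.5 and 104 CPM on HFD, where the diets overlapped.

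The 8 genes covered a wide range of expression, compared here as CPM per kilobase of exon. The length joins all annotated exons of a gene, 1340 bases for Ftl1, 3469 for Fth1, 7662 for Heph and 9000 for Slc40a1. It can exceed the length of the message present, and the order depends on it. Without it, Ftl1 averaged 683, Heph 503 and Fth1 448 CPM. Over the 12 libraries the order was Ftl1 at 509 ± 33.8 (SD, n = 12), Fth1 at 129 ± 10.7, Heph at 65.6 ± 4.59, Tfrc at 24.0 ± 4.62, Slc40a1 at 13.7 ± 4.10, Epas1 at 8.43 ± 1.86, Slc11a2 at 7.57 ± 0.648 and Cybrd1 at 0.326 ± 0.0923 CPM per kb. On this scale the ferritin chains and hephaestin were separated from each other and from the rest in every library. The apical reductase Cybrd1 was lowest in every library. The middle of the order was less firm. Tfrc and Slc40a1 overlapped in PparaΔIE chow, and Slc40a1 and Epas1 overlapped in both HFD groups. Epas1 and Slc11a2 differed in order between groups. Slc11a2 was above Epas1 in Pparafl/fl chow (7.67 ± 0.543 against 6.55 ± 0.293 CPM per kb, SD, n = 3) and below it in PparaΔIE HFD (7.37 ± 0.0588 against 10.3 ± 1.17 CPM per kb), in each case without overlap. They overlapped in PparaΔIE chow (Slc11a2 6.91 to 8.53, Epas1 7.05 to 7.22 CPM per kb) and in Pparafl/fl HFD (Slc11a2 6.73 to 8.65, Epas1 8.38 to 11.2 CPM per kb), so the order did not switch cleanly within either genotype.

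**Figure D1:**
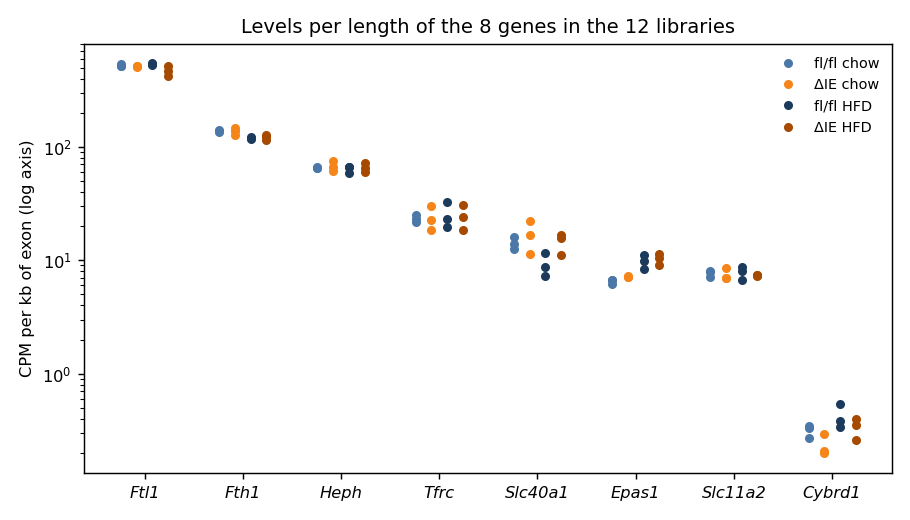
Level of each of the 8 genes per length in the 12 libraries. The vertical log axis gives CPM per kb of exon, each point is 1 library, and colours give the 4 groups. Ftl1, Fth1 and Heph form separate steps at the top, Cybrd1 reaches at most 0.540 CPM per kb, and Tfrc, Slc40a1, Epas1 and Slc11a2 lie close together between them.

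At the brush border, neither gene of iron entry differed between genotypes or diets past the threshold. Slc11a2, the ferrous iron importer, measured 50.2, 51.2 and 44.8 CPM in Pparafl/fl chow, 54.2, 44.0 and 43.9 CPM in PparaΔIE chow, 55.0, 51.1 and 42.8 CPM in Pparafl/fl HFD, and 46.7, 46.5 and 47.2 CPM in PparaΔIE HFD. All 4 groups overlapped, and the libraries of PparaΔIE HFD were almost equal. The log2 difference between diets was 0.03 in Pparafl/fl mice (95% interval -0.19 to 0.24) and -0.02 in PparaΔIE mice (-0.23 to 0.20), so that changes beyond these bounds in either direction lie outside the interval. Between genotypes it was -0.04 on chow (-0.25 to 0.17) and -0.08 on HFD (-0.30 to 0.13).

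Cybrd1, the ferric reductase, measured 1.44, 1.85 and 1.76 CPM in Pparafl/fl chow, 1.12, 1.55 and 1.06 CPM in PparaΔIE chow, 2.88, 1.81 and 2.05 CPM in Pparafl/fl HFD, and 1.39, 2.11 and 1.86 CPM in PparaΔIE HFD. These values rest on 35 to 116 counts per library. The groups overlapped in all 4 pairwise comparisons. Averaged over genotypes, the log2 difference between HFD and chow was 0.47 (SE 0.17, 95% interval 0.11 to 0.83) with an adjusted p of 0.054 by edgeR. Without the second PparaΔIE chow library it was 0.56 (adjusted p = 0.026, edgeR), and DESeq2 also called it (0.46, adjusted p = 0.049). It was called in 5 of 21 alternatives, in which it ran from 0.19 to 0.56 with an adjusted p of up to 0.72 (edgeR).

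Slc40a1 had the widest spread of the 8 genes, 3.09-fold from the lowest to the highest library. Ferroportin RNA measured 126, 144 and 114 CPM in Pparafl/fl chow, 201, 103 and 150 CPM in PparaΔIE chow, 65.0, 79.0 and 104 CPM in Pparafl/fl HFD, and 150, 142 and 101 CPM in PparaΔIE HFD. Its 3 Pparafl/fl HFD libraries lay below all 3 Pparafl/fl chow libraries, as did 18.6% of all tested genes, while PparaΔIE libraries overlapped between the diets. The difference in Pparafl/fl mice did not pass the threshold (log2 difference -0.63, SE 0.26, 95% interval -1.21 to -0.06, adjusted p = 0.14, edgeR). With the proximal intestine score as a covariate it was -0.03 (adjusted p = 0.98, edgeR). That score was -0.97 to -0.93 in Pparafl/fl chow and -0.03 to 0.96 in Pparafl/fl HFD, without overlap. The covariate fit therefore cannot tell diet from score in this genotype. The score followed mainly Lct, which itself passed between the diets in Pparafl/fl mice, so it does not stand for segment alone. In PparaΔIE mice the diet difference without a covariate was -0.21 (SE 0.26, 95% interval -0.78 to 0.37, adjusted p = 0.67). The test of the difference between these diet effects did not pass either (0.43, SE 0.36, adjusted p = 0.93). Averaged over genotypes the diet difference was -0.42 (adjusted p = 0.12, edgeR). It passed in 1 of 21 alternatives, the fit without the second PparaΔIE chow library (-0.53, adjusted p = 0.029, edgeR). On HFD, the PparaΔIE libraries averaged 131 ± 26.5 CPM against 82.6 ± 19.6 CPM in Pparafl/fl mice (SD, n = 3), with 1 PparaΔIE library inside the Pparafl/fl range and an adjusted p of 0.32.

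Heph, the ferroxidase partner of ferroportin, was among the steadiest of the 8 genes. It averaged 504 ± 6.61 CPM in Pparafl/fl chow, 516 ± 55.4 CPM in PparaΔIE chow, 489 ± 32.0 CPM in Pparafl/fl HFD and 502 ± 46.3 CPM in PparaΔIE HFD (SD, n = 3), with all groups overlapping. Its log2 differences lay between -0.04 and 0.04 in the 4 pairwise comparisons, and their 95% intervals ran from -0.25 at the lowest to 0.24 at the highest bound.

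Tfrc, the transferrin receptor, measured 142, 154 and 135 CPM in Pparafl/fl chow, 185, 114 and 139 CPM in PparaΔIE chow, 200, 142 and 122 CPM in Pparafl/fl HFD, and 188, 148 and 114 CPM in PparaΔIE HFD. Outside Pparafl/fl chow the libraries of a group differed up to 1.65-fold, and all 4 groups overlapped. The group means lay between 144 and 155 CPM, and the 95% intervals of the log2 differences between groups reached as far as -0.56 and 0.62, so a moderate change in either direction was not detectable with this spread. Smooth muscle markers differed between the HFD groups, with a summed level over 10 genes of 91.5 to 119 CPM in PparaΔIE HFD and 32.9 to 71.7 CPM in Pparafl/fl HFD. With a smooth muscle score as a covariate, Tfrc passed the threshold as lower in PparaΔIE HFD than in Pparafl/fl HFD (-0.94, adjusted p = 0.018, edgeR) and than in PparaΔIE chow (-0.72, adjusted p = 0.024). Without the covariate these differences were -0.05 and 0.04. The score was 0.47 to 0.79 in PparaΔIE HFD, -0.76 to 0.18 in Pparafl/fl HFD and -0.45 to -0.03 in PparaΔIE chow. It overlapped in neither comparison, so the covariate fit cannot tell group from score.

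Ferritin heavy chain was lower on HFD, by a small and even amount. Fth1 measured 494, 482 and 473 CPM in Pparafl/fl chow, 507, 445 and 477 CPM in PparaΔIE chow, 407, 414 and 420 CPM in Pparafl/fl HFD, and 396, 443 and 423 CPM in PparaΔIE HFD. All 6 HFD libraries lay below all 6 chow libraries, as did 4.24% of all tested genes. Averaged over genotypes, Fth1 fell by 0.20 on the log2 scale (SE 0.05, 95% interval -0.32 to -0.09), which is 1.15-fold lower (adjusted p = 0.014, edgeR). Within 1 genotype the difference was -0.22 in Pparafl/fl mice (adjusted p = 0.066) and -0.18 in PparaΔIE mice (adjusted p = 0.16), and neither passed. The averaged difference lost its call without the 2 in-between chow libraries (-0.21, adjusted p = 0.081), with a proximal intestine score as a covariate (-0.16, adjusted p = 0.27) and with an endothelial score as a covariate, chosen after seeing the data (-0.04, adjusted p = 0.88). In Pparafl/fl mice neither score overlapped between the diets, so these covariate fits cannot cleanly separate diet from score. The proximal score followed mainly Lct and does not stand for segment alone. Epithelial markers moved the same way: their summed level was 14700 to 18513 CPM on chow and 12593 to 15553 CPM on HFD. Averaged over genotypes 5 of the 9 epithelial markers fell on HFD, where 26.2% of all genes passed. A separate list of enterocyte markers did not fall: 1 of 6 rose and 0 fell, with a median of 0.10. The part of either list in the Fth1 result was not tested.

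Ferritin light chain showed no difference past the threshold in any comparison. Ftl1 measured 716, 694 and 691 CPM in Pparafl/fl chow, 686, 680 and 697 CPM in PparaΔIE chow, 724, 728 and 700 CPM in Pparafl/fl HFD, and 618, 569 and 689 CPM in PparaΔIE HFD. The PparaΔIE HFD libraries lay below those of Pparafl/fl HFD, as did 8.7% of all tested genes, but the difference did not pass the threshold (-0.20, SE 0.08, 95% interval -0.37 to -0.02, adjusted p = 0.32, edgeR). The ratio of Fth1 to Ftl1 counts was 0.690, 0.695 and 0.685 in Pparafl/fl chow and 0.563, 0.568 and 0.600 in Pparafl/fl HFD, with no overlap. In PparaΔIE mice it was 0.739, 0.654 and 0.684 on chow and 0.640, 0.778 and 0.615 on HFD, where the diets overlapped. Ftl1 shares reads with the pseudogene Ftl1-ps1, which took 1.29% to 1.9% of their joint counts, so Ftl1 carries that uncertainty.

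**Figure D2:**
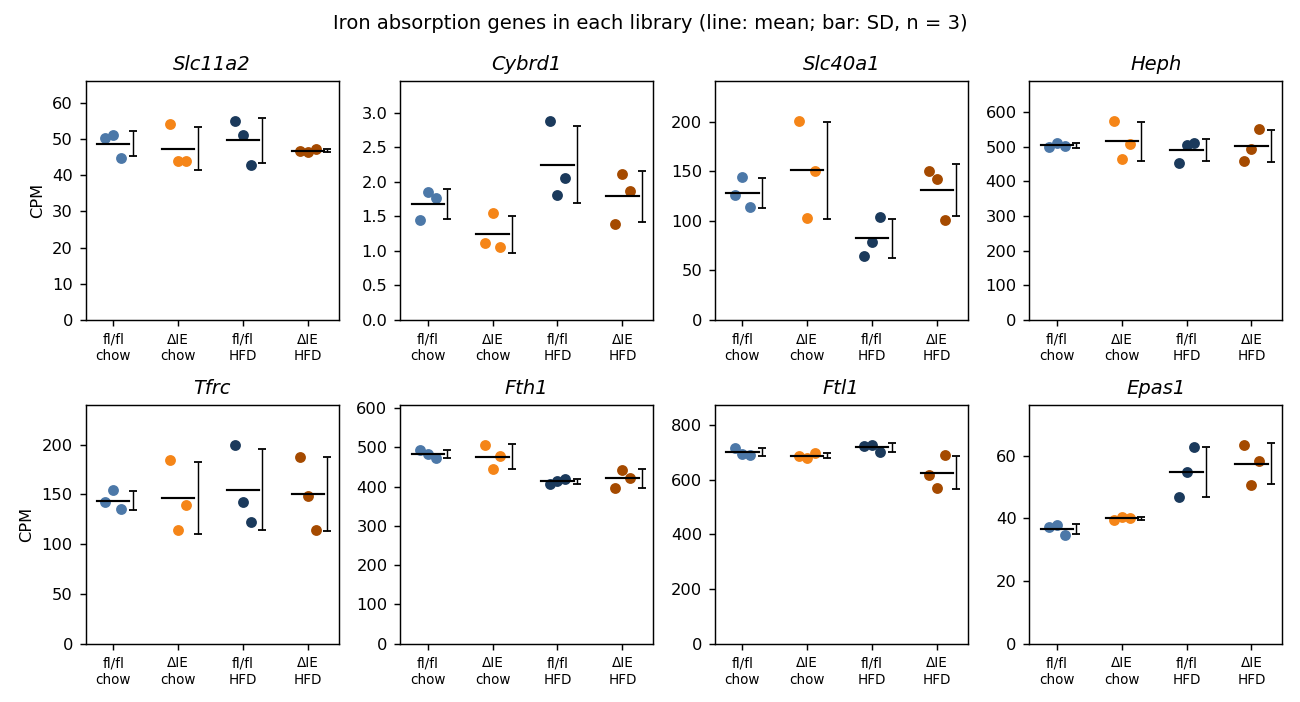
CPM of each iron absorption gene in every library. Each point is 1 library, the line is the group mean, the bar beside it is the SD (n = 3), and each vertical axis starts at 0. Epas1 is higher in all 6 HFD libraries than in all 6 chow libraries, Fth1 is lower in all 6, and Tfrc and Slc40a1 spread widely within groups.

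Epas1 was the gene of the 8 that changed with diet in both genotypes. It measured 37.3, 37.8 and 34.7 CPM in Pparafl/fl chow, 39.4, 40.4 and 40.0 CPM in PparaΔIE chow, 46.8, 54.6 and 62.6 CPM in Pparafl/fl HFD, and 63.5, 50.5 and 58.2 CPM in PparaΔIE HFD. Every HFD library was above every chow library, as held for 3.95% of all tested genes. In Pparafl/fl mice Epas1 rose by 0.58 on the log2 scale (SE 0.10, 95% interval 0.36 to 0.79), which is 1.49-fold (adjusted p = 0.003, edgeR). In PparaΔIE mice it rose by 0.52 (SE 0.10, 95% interval 0.31 to 0.74), which is 1.44-fold (adjusted p = 0.0078, edgeR). The diet effects of the genotypes differed by -0.06 (SE 0.14, 95% interval -0.36 to 0.25, adjusted p = 0.98), and with the genotypes averaged the rise was 0.55 (SE 0.07, adjusted p = 0.00014). Between genotypes, the PparaΔIE chow libraries lay just above those of Pparafl/fl chow (log2 difference 0.13, adjusted p = 0.61), as did 10.0% of all tested genes, while the HFD groups overlapped.

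Epas1 is strongly expressed in endothelium, and endothelial markers moved in the same direction. Their summed level over 9 genes was 33.8 to 38.2 CPM in Pparafl/fl chow and 46.4 to 51.7 CPM in Pparafl/fl HFD, and 34.6 to 46.5 CPM against 39.6 to 48.9 CPM in PparaΔIE mice. In Pparafl/fl mice 4 of the 9 rose on HFD, where 13.4% of all genes passed. These were Tie1, Kdr, Tek and Cdh5 (log2 differences 0.74, 0.74, 0.71 and 0.65), and none of the others fell past the threshold. In PparaΔIE mice 0 of 9 passed (8.2% of all genes), with a median of 0.30. Averaged over genotypes 6 of 9 rose and 0 fell, where 26.2% of all genes passed. With the endothelial score as a covariate, the Epas1 difference was 0.51 in Pparafl/fl mice (adjusted p = 0.53) and 0.49 in PparaΔIE mice (adjusted p = 0.096). That fit called 0 and 209 genes in all, against 2354 and 1444 without the covariate. The score was -0.28 to -0.13 in Pparafl/fl chow and 0.15 to 0.34 in Pparafl/fl HFD, without overlap. In that genotype the fit therefore cannot tell diet from score. The part of the endothelial genes in the Epas1 result was not tested. Without both in-between chow libraries the Epas1 rise was 0.58 in Pparafl/fl mice (adjusted p = 0.037) and 0.51 in PparaΔIE mice (adjusted p = 0.079), the second no longer past the threshold.

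The share of the 8 genes that passed was near the background over all genes. In Pparafl/fl mice 1 of 8 passed between the diets, against 13.4% of all 17602 tested genes, and in PparaΔIE mice 1 of 8 against 8.2%. Averaged over genotypes 2 of 8 passed (Epas1 and Fth1), against 26.2%. Between genotypes 0 of 8 passed on chow, where 0.125% of all genes did, 0 of 8 on HFD, where 0.29% did, and 0 of 8 in the test of the genotype by diet interaction, where 0.00568% did. Their median log2 difference was 0.03 for diet in Pparafl/fl mice and -0.03 in PparaΔIE mice, against 0.01 for all genes in both. At an unadjusted edgeR p under 0.05, 0 of the 8 passed between genotypes on chow (13.0% of all genes), 2 on HFD (13.0%), Slc40a1 and Ftl1, and 0 in the interaction (6.35%), and DESeq2 called 0 of 8 in each of these comparisons.

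**Figure D3:**
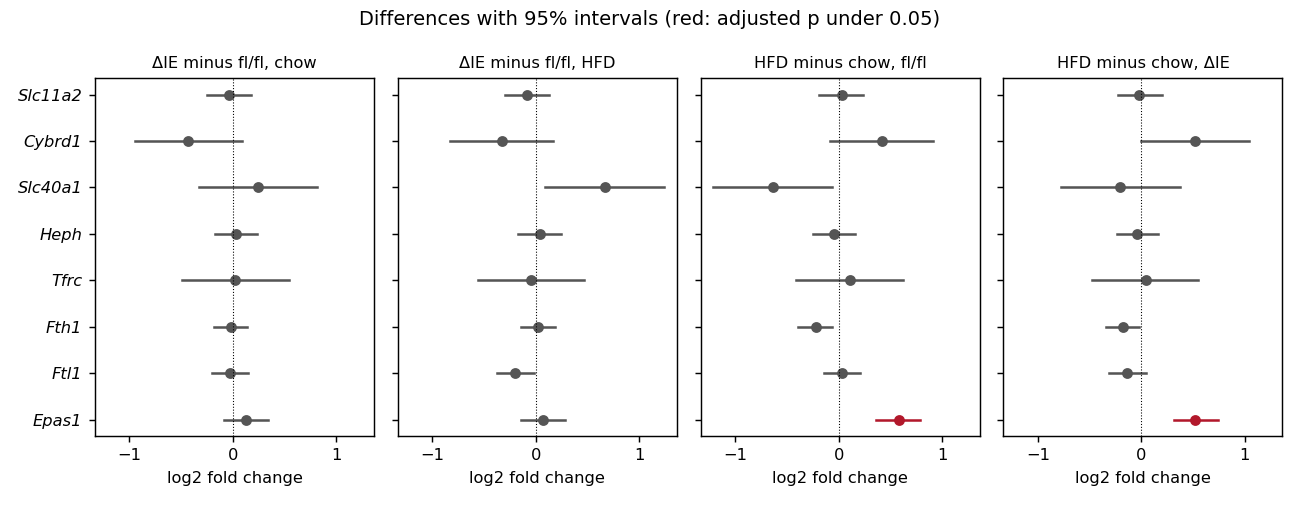
Log2 differences of the 8 genes in the 4 pairwise comparisons. Points are edgeR estimates, lines their 95% intervals, and red marks an adjusted p under 0.05. Only Epas1 in the diet comparisons is red, at 0.58 and 0.52, while the interval of Slc40a1 spans more than that of any ferritin chain.

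Genes of the wider iron and oxygen pathways were read from 8 lists. Between genotypes no gene of these lists passed on either diet. For the hypoxia response outside iron handling, 14 of 15 genes were tested, and those that passed had moved opposite to Epas1. In Pparafl/fl mice 3 of 14 passed (13.4% of all genes), namely Car9, Slc2a1 and Pdk1, all lower on HFD, with a list median of -0.32 against 0.01 for all genes. In PparaΔIE mice 6 of 14 passed (8.2% of all genes), all lower, led by Car9, Ndrg1, Slc2a1 and Bnip3, with a list median of -0.41. Averaged over genotypes 7 of 14 fell and 0 rose, where 26.2% of all genes passed. Epithelial and proliferation markers also ran lower on HFD, with 5 of 9 and 6 of 11 genes fallen averaged over genotypes. Of 6 enterocyte markers 1 rose and 0 fell. The part of these lists in the fall of the hypoxia genes was not tested.

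Car9, a membrane carbonic anhydrase and a classic target of HIF-1, varied little within groups. It measured 36.5, 35.7 and 36.4 CPM in Pparafl/fl chow, 29.9, 30.7 and 30.5 CPM in PparaΔIE chow, 24.7, 24.9 and 23.8 CPM in Pparafl/fl HFD, and 22.1, 22.0 and 22.9 CPM in PparaΔIE HFD. All 6 HFD libraries lay below all 6 chow libraries, as held for 4.24% of all tested genes. It fell by 0.57 on HFD in Pparafl/fl mice (SE 0.06, adjusted p = 0.00022, edgeR) and by 0.44 in PparaΔIE mice (SE 0.06, adjusted p = 0.0015, edgeR), while its genotype difference on chow (-0.25, adjusted p = 0.15) did not pass. Slc2a1, the glucose transporter GLUT1, fell by 0.62 and 0.61 in the Pparafl/fl and PparaΔIE mice, and Pdk1, a kinase that restrains pyruvate oxidation, fell by 0.59 in Pparafl/fl mice. In the list of HIF control, 1 of 8 genes passed in Pparafl/fl mice (13.4% of all genes) and 2 of 8 in PparaΔIE mice (8.2%), all lower, and averaged over genotypes 2 rose and 2 fell (26.2%). Hif1a, which encodes the other main HIF α subunit, fell on HFD where Epas1 rose: by 0.33 in Pparafl/fl mice (SE 0.10, adjusted p = 0.041) and by 0.50 in PparaΔIE mice (SE 0.10, adjusted p = 0.0097). Vegfa, a vascular growth factor induced by hypoxia, measured 0.29 (95% interval -0.06 to 0.64) and 0.14 (-0.21 to 0.49) on the log2 scale of the same comparisons.

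**Figure D4:**
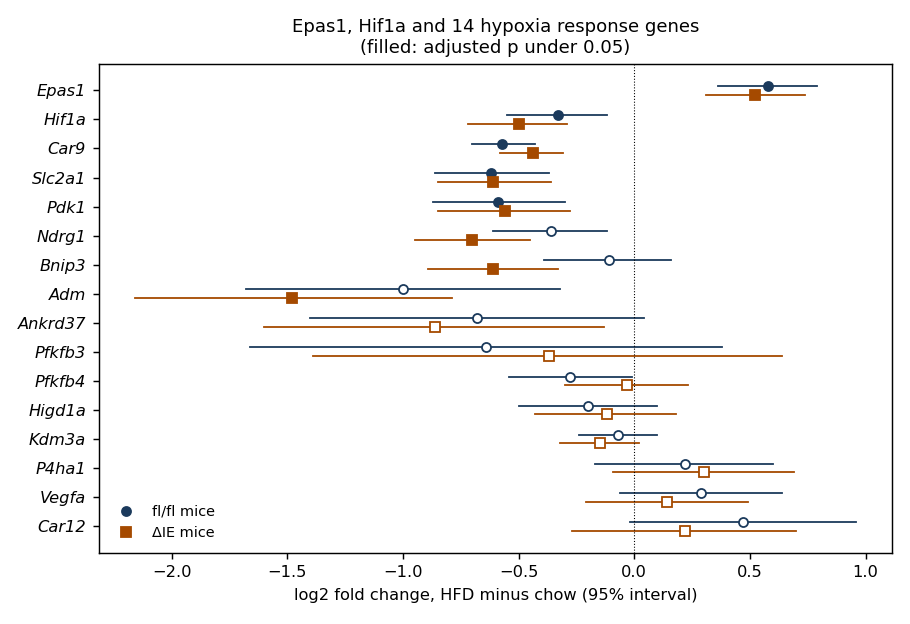
Log2 difference between HFD and chow for Epas1, Hif1a and the 14 tested genes of the hypoxia list, in Pparafl/fl mice (circles) and PparaΔIE mice (squares). Lines are 95% intervals and filled symbols have an adjusted p under 0.05. Epas1 lies at 0.58 and 0.52, and the filled symbols of the other genes all lie below 0.

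Heme handling genes moved in both directions on HFD. Of 11 genes 10 were tested, and in Pparafl/fl mice 3 rose and 1 fell on HFD (13.4% of all genes passed), while in PparaΔIE mice 1 rose and 1 fell (8.2%). Averaged over genotypes 3 of 10 rose and 2 fell (26.2%). Flvcr1, an exporter long linked to heme and also reported to carry choline, measured 48.6, 51.1 and 47.6 CPM in Pparafl/fl chow, 42.0, 57.6 and 51.9 CPM in PparaΔIE chow, 96.4, 118 and 99.0 CPM in Pparafl/fl HFD, and 72.9, 83.1 and 115 CPM in PparaΔIE HFD. Its HFD libraries lay above all chow libraries, as held for 3.95% of all genes, and it rose 2.13-fold in Pparafl/fl mice (adjusted p = 0.0016) and 1.79-fold in PparaΔIE mice (adjusted p = 0.0091). Abcg2, a multidrug transporter that also exports porphyrins, fell in both genotypes, with all 6 HFD libraries below all 6 chow libraries (4.24% of all genes), from 378 ± 18.7 to 264 ± 24.0 CPM in Pparafl/fl mice and from 380 ± 75.5 to 255 ± 18.6 CPM in PparaΔIE mice (SD, n = 3). Its log2 changes were -0.52 (adjusted p = 0.014) and -0.58 (adjusted p = 0.011, edgeR). Flvcr2 and Lrp1, the receptor for hemopexin-bound heme among many ligands, rose by 0.92 and 0.49 in Pparafl/fl mice. Flvcr2 overlapped between the diets there, at 4.17, 4.92 and 3.1 CPM on chow and 9.1, 9.11 and 4.8 CPM on HFD. The heme importer candidate Slc46a1, better known as the proton-coupled folate transporter, gave -0.11 (95% interval -0.35 to 0.13) and -0.26 (-0.50 to -0.03) in the diet comparisons and did not pass.

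**Figure D5:**
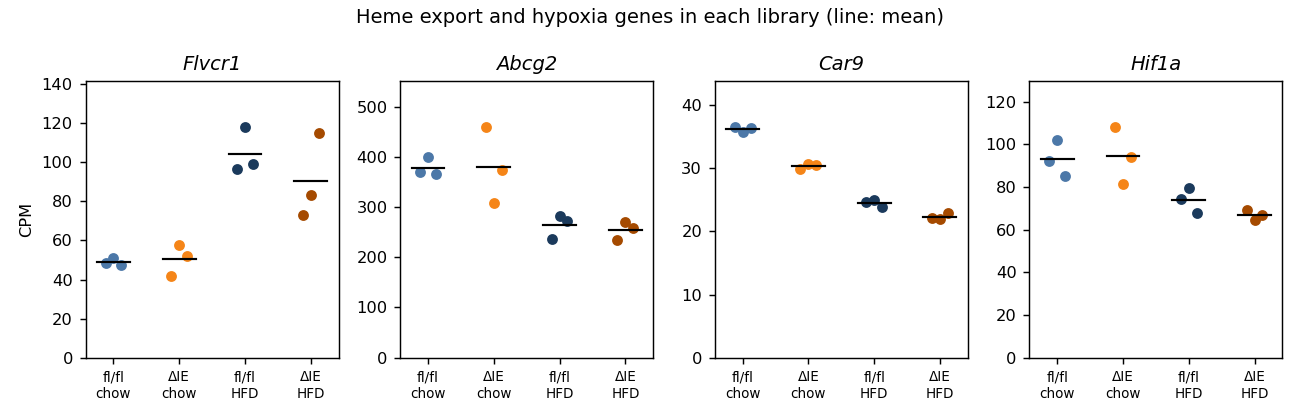
CPM of Flvcr1, Abcg2, Car9 and Hif1a in every library. Points are libraries, lines are group means (n = 3), and each vertical axis starts at 0. Flvcr1 is higher in all 6 HFD libraries than in any chow library, and Abcg2, Car9 and Hif1a are lower.

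Regulators of systemic iron changed in mixed directions. Of the 13 genes of the hepcidin axis 9 were tested, and Hamp, which encodes hepcidin, was not among them. In Pparafl/fl mice 4 of 9 passed (13.4% of all genes) and in PparaΔIE mice 2 of 9 (8.2%). Averaged over genotypes 2 of 9 rose and 3 fell, where 26.2% of all genes passed. Erfe, the gene of erythroferrone, fell by 0.63 in Pparafl/fl mice (adjusted p = 0.0049) and by 0.58 in PparaΔIE mice (adjusted p = 0.012), at levels of 3.24 to 6.11 CPM. Id1, a target of BMP signalling, fell by 0.65 and 0.67. In Pparafl/fl mice Bmp6, an iron-regulated ligand of that pathway, rose by 1.04 but measured at most 1.27 CPM, and Smad5 rose by 0.37.

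Among genes of iron sensing and ferritin turnover, 8 of 9 were tested and 2 rose on HFD in Pparafl/fl mice, where 13.4% of all genes passed. These were Fbxl5, which marks iron regulatory protein 2 for degradation, at 0.29 (adjusted p = 0.020), and Ireb2, which encodes that protein, at 0.25 (adjusted p = 0.025). In PparaΔIE mice 0 of 8 passed, against 8.2% of all genes. Averaged over genotypes 3 of 8 rose and 0 fell, where 26.2% of all genes passed. These were Aco1, Fbxl5 and Ireb2. Of the 20 genes of mitochondrial iron and heme synthesis 1 fell in each genotype, Abcb10 in Pparafl/fl mice (-0.28) and Fech, the ferrochelatase, in PparaΔIE mice (-0.32), where 13.4% and 8.2% of all genes passed. Averaged over genotypes 6 of these 20 fell and 1 rose, Cpox, a share near the 26.2% of all genes. Other genes of iron uptake and carriage gave 0 of 9 in either genotype (13.4% and 8.2% of all genes). Averaged over genotypes 1 of 9 passed (26.2% of all genes), Steap2 (-0.39, adjusted p = 0.011), a metalloreductase. Copper transport gave 1 of 6 in Pparafl/fl mice (13.4% of all genes), Atp7b (0.74), and 0 of 6 in PparaΔIE mice (8.2%). Averaged over genotypes 2 of these 6 fell, where 26.2% of all genes passed. These were the copper chaperone Atox1 (-0.28, adjusted p = 0.0083) and Slc31a2 (-0.26, adjusted p = 0.036), while Atp7b did not pass (0.39, adjusted p = 0.069).

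The genes most like each of the 8 across the 12 libraries were taken from 11277 protein-coding genes by Pearson's r of log2 CPM, as a description with no test. The points share their depth, group and tissue makeup. Epas1 was most like Hipk1 (r = 0.975) and Pam (r = 0.963), and Fth1 most like Rnf149 (r = 0.974) and Reg3b (r = 0.972). Slc40a1 was most like B3galt5 (r = 0.949) and Chst4 (r = 0.938), and Tfrc most like Kbtbd8 (r = 0.952) and Acer3 (r = 0.921). Ftl1 was most like Sqstm1 (r = 0.955) and Tmem59 (r = 0.920), and Heph most like Adgrg7 (r = 0.940) and Myzap (r = 0.933). Cybrd1 was most like Clasp2 (r = 0.909) and Pygb (r = 0.904), and Slc11a2 most like Hcfc2 (r = 0.869) and Metap1 (r = 0.866).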

How the data were processed

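Expected counts per gene, as deposited by the authors, come from a workflow that used Trimmomatic, STAR, Picard, RSEM and mm10 (per the submitters' processing notes, without versions). Which annotation and strand setting were used for counting is not given in the sources consulted. The kit marks strand and starts from total RNA, per the labels' protocols. Gene IDs were matched to GENCODE vM21, and 47224 of 47643 matched. RSEM splits reads among similar genes, and Ftl1 had values that were not whole in all 12 libraries.

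Counts were rounded, and edgeR 4.0.16 in R 4.3.3 was run on them with TMM factors, filterByExpr and its robust quasi-likelihood test, with all 12 libraries in 1 fit of 4 group means, adjusted by Benjamini and Hochberg over 17602 genes with a threshold of 0.05. The procedure was tested on simulated data with the same spread in every group, so the unequal spread of these groups was not simulated. The comparison averaged over genotypes and the endothelial covariate were added after seeing the data. Scores are mean centred log2 values of CPM plus 0.5 over a marker list. The proximal score followed mainly Lct (0.453 to 256 CPM), while Pdx1 reached at most 0.174 CPM and Onecut2 at most 0.693 CPM. DESeq2 1.42.0 served as an alternative.

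The members and gene lists were chosen with earlier results of these data known. The genes named are the 8 members and Ppara, genes of the pathway lists, and the 2 genes most like each member. Those of the pathway lists come from up to 4 called genes with the smallest p per list and comparison, not all of them named. Slc46a1, Vegfa, Hamp, Ftl1-ps1 and the endothelial genes fall outside this rule, as do the segment markers (Pdx1, Lct, Gata4, Onecut2, Fabp6, Slc10a2, Fgf15). All of these were named after their values were seen. Iron-responsive elements were searched in the UTRs of GENCODE vM21 transcripts. Within-group variation (biological coefficient of variation) was 0.0583 in Pparafl/fl chow and 0.14 to 0.151 in the other groups.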

Additional observations from a re-analysis of the deposited data

How the results depend on the processing

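The rise of Epas1 on HFD kept its direction in every alternative, with log2 differences of 0.47 to 0.74 in Pparafl/fl mice and 0.44 to 0.72 in PparaΔIE mice. Its call held in every fit that left out 1 library. The number of genes called over the whole table moved far more than the members did, and the cause was not tested. In this order the comparisons are genotype on chow, genotype on HFD, diet in Pparafl/fl mice, diet in PparaΔIE mice, interaction and averaged diet, with 22, 51, 2354, 1444, 1 and 4614 genes called by edgeR. With DESeq2 the genotype comparisons and the interaction gave 186, 289 and 57 genes, and with no filter on low counts 49, 94 and 4. A filter of 50 counts in 3 libraries gave 0 for the interaction. Fits of only the groups compared gave 54, 6 and, for diet in PparaΔIE mice, 335 genes. DESeq2 and the fit of only the groups compared called 2 members for diet in Pparafl/fl mice, Fth1 joining Epas1 (adjusted p = 0.014 and 0.031).

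Same-numbered libraries of different groups had residual correlations of -0.111 to 0.143 over 18 pairs, against -0.261 to 0.228 over 36 other pairs, so the replicate numbers were not taken to pair samples. A replicate block gave 14 genes for genotype on chow and 0 for the interaction, moved Tfrc to -0.01 on chow, and changed no member's call.

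Without both in-between chow libraries the counts were 1, 3, 457, 185, 0 and 2371 genes, with 0 members called for diet in PparaΔIE mice and 1 for the averaged diet effect. Slc11a2 then gave 0.03 between genotypes on chow, and Tfrc -0.02 for diet in PparaΔIE mice. With the proximal score as a covariate, 9 genes were called for genotype on chow, 69 and 706 for diet, 0 for the interaction and 759 for the averaged diet effect, where 1 member was called, Epas1. Signs turned for Fth1 on chow (0.01), Heph for diet (0.09 and 0.02), Slc11a2 for diet in PparaΔIE mice (0.02) and Slc40a1 (0.08 in PparaΔIE mice, 0.02 averaged), and the Slc40a1 diet difference in Pparafl/fl mice shrank to -0.03. The proximal score, which followed mainly Lct, did not overlap between the diets in Pparafl/fl mice. With the smooth muscle score the counts were 1613 for genotype on HFD, 1325 and 2562 for diet and 53 for the interaction, with 1 member called for genotype on HFD and 2 for diet in PparaΔIE mice. Tfrc turned to -0.72 for diet in PparaΔIE mice, Heph to 0.05 there, and Slc11a2 to 0.04 between genotypes on chow. The smooth muscle score of PparaΔIE HFD overlapped neither that of Pparafl/fl HFD nor that of PparaΔIE chow.

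With the endothelial score, an alternative chosen after seeing the data, 3 genes were called for genotype on HFD, 0 and 209 for diet, 0 for the interaction and 27 for the averaged diet effect, and 0 members in each diet comparison. Signs turned between genotypes on chow for Tfrc (-0.003) and Fth1 (0.01), and on HFD for Tfrc (0.05), Heph (-0.09) and Fth1 (-0.06). For diet in Pparafl/fl mice they turned for Tfrc (-0.15), Slc11a2 (-0.03), Heph (0.29) and Ftl1 (-0.01). For diet in PparaΔIE mice they turned for Tfrc (-0.10), Slc40a1 (0.11) and Heph (0.12), and averaged for Slc40a1 (0.02).

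Leaving out 1 library at a time gave 1 to 520 genes for genotype on chow, 5 to 172 on HFD, 895 to 3089 and 451 to 2550 for diet, 0 to 19 for the interaction and 3442 to 5353 for the averaged diet effect. The 520 genes came without the first PparaΔIE chow library, the 172 without the third PparaΔIE HFD library, the 895 without the third Pparafl/fl chow library, and the 451 and 2550 without the third and second PparaΔIE chow library. Between 1 and 2 members were called for diet in Pparafl/fl mice, Fth1 being added without the first or second PparaΔIE chow library (adjusted p = 0.041 and 0.035). Averaged, 2 to 4 were called, with Cybrd1 and Slc40a1 added without the second PparaΔIE chow library (adjusted p = 0.026 and 0.029). Signs of small differences were unsteady. On chow the genotype difference ran from -0.18 to 0.17 for Tfrc, -0.14 to 0.01 for Slc11a2, -0.02 to 0.45 for Slc40a1, -0.05 to 0.10 for Heph and -0.06 to 0.02 for Fth1. On HFD it ran from -0.24 to 0.18 for Tfrc, -0.05 to 0.09 for Heph, -0.02 to 0.07 for Fth1 and -0.03 to 0.18 for Epas1. For diet in Pparafl/fl mice it ran from -0.14 to 0.25 for Tfrc and -0.07 to 0.12 for Slc11a2. In PparaΔIE mice it ran from -0.16 to 0.22 for Tfrc, -0.09 to 0.07 for Slc11a2, -0.43 to 0.03 for Slc40a1 and -0.13 to 0.02 for Heph. Cybrd1 rested on 35 to 116 counts in a library, and every other member on at least 1304.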
